A study of Mus musculus with 12 samples.

Results

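The 9 genes described here encode the cyclic AMP machinery that holds a mouse oocyte in meiotic arrest: the receptors Gpr3 and Gpr12, the adenylyl cyclase Adcy3, the phosphodiesterase Pde3a, the catalytic subunits of protein kinase A (PKA) Prkaca and Prkacb, and its regulatory subunits Prkar1a, Prkar2a and Prkar2b. They were taken by symbol, and all 9 were found among the 23235 genes of the deposited table. Polysome-bound RNA, that is, mRNA loaded with ribosomes, was sequenced in 12 libraries of Cnot6l-/- (KO) and wild-type (WT) oocytes. They come in pairs from the germinal vesicle stage (GV), from MI and from MII of each genotype. CNOT6L is one of the enzymes with which the CCR4-NOT complex shortens poly(A) tails. All mice were C57BL/6 on postnatal day 21. GV oocytes were taken 48 h after PMSG, a gonadotropin that stimulates follicle growth, while MI and MII oocytes had been cultured for 8 h and 16 h. The labels do not describe the deleted part of Cnot6l, and they do not say how many animals were pooled or whether replicates came from separate pools, so p-values measure only the spread between libraries.

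In a GV oocyte, GPR3 and the related receptor GPR12 signal through a stimulatory G protein without an added ligand, and adenylyl cyclase then makes cyclic AMP. Cyclic AMP binds the regulatory subunits of PKA and frees the catalytic subunits, which phosphorylate the kinase WEE2 and the phosphatase CDC25B and so keep CDK1 inactive. PDE3A breaks cyclic AMP down, and cyclic GMP that enters from the surrounding follicle cells through gap junctions inhibits it. Meiosis resumes when cyclic AMP falls.

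Cytoplasmic polyadenylation elements and polyadenylation hexamers are 3′-end sequences through which a poly(A) tail can be lengthened, the step opposite to deadenylation, so the 3′ ends of the PKA subunits were read from the transcripts of the same build (mm9). Each sequence ends with the last hexamer (AATAAA or ATTAAA) in the last 100 bases of the 3′ UTR, and capitals mark hexamers and the elements TTTTAT or TTTTAAT.
Prkacb (chr3:146392557-146392586, minus strand): TTTTAATtcatcaataaccgcaaaATTAAA
Prkaca (chr8:86520313-86520342, plus strand): attaccAATAAAgttttgttttaaAATAAA
Prkar1a (chr11:109530917-109530946, plus strand): gactgtctcaatggtaggtcacagAATAAA
Prkar2b (chr12:32643341-32643370, minus strand): ccttatAATAAAgcacacTTTTATAATAAA

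On the transcript strand alone, TTTTAT stood in the last 100 bases of 14.1% of 14980 genes with such a window, TTTTAAT in 5.01%, AATAAA in 67.3% and ATTAAA in 20.8%. Prkacb carried TTTTAAT and Prkar2b carried TTTTAT, whereas Gpr3, Prkaca, Prkar1a, Prkar2a and Pde3a carried neither in this window. Gpr12 held 1 of each, and in Adcy3 a TTTTAT shared bases with the hexamer ATTAAA. Neither hexamer was found there in Pde3a or Prkar2a. Elsewhere in the UTR these letters were not searched.

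Levels are given in FPKM, a count of fragments adjusted for transcript length and library size, which allows levels of different genes to be set side by side. The totals of the libraries differed, from 884142 FPKM in a WT MII library to 1663871 in a KO MI library, and 9064 to 13319 genes were above 0. All 14 oocyte markers examined, such as Gdf9 and Zp3, were above 1 FPKM in every library. Cumulus and granulosa transcripts summed to 61.6 to 313 FPKM, with 5 to 14 of 20 above 0. Among them Cyp19a1 (8.87 to 100.8 FPKM) and Nr5a2 (1.33 to 9.77) were above 0 in all 12 libraries, Inha stood at 112.6 to 238.8 in the GV libraries, and Foxl2, Lhcgr and Pgr were at 0 throughout. Of other cell types, 1 to 3 of 10 theca, stroma, endothelium and blood markers were above 0. Among these, Pecam1 was above 0 in all 12 libraries (13.1 to 70.2 FPKM), and Dcn was at 0 in 5 libraries and reached 12.1. The Cnot6l transcript itself was at 6.28 to 23.5 FPKM in KO, against 16.1 to 68.5 FPKM in WT. Both KO libraries were below both WT libraries at MI and MII but not at GV, and the gene was called lower at MII only (limma adjusted p = 0.0425).

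Over the 12 libraries, Gpr3 and Prkar1a had the highest mean levels of the 9 genes, 115.7 and 107.3 FPKM, and their ranges overlapped (54.4 to 171.5 and 54.4 to 172.4). Pde3a followed at 46.1 (27.4 to 58.1), then Prkar2a at 30.9 (5.21 to 49.9), Prkaca at 26.0 (11 to 43.0), Prkar2b at 17.0 (5.32 to 45.6) and Prkacb at 7.34 (0 to 17.4). Neighbours in this order had overlapping ranges. Gpr12 and Adcy3 averaged 0.778 and 0.402 FPKM and were listed at 0 in 8 and 6 libraries. Each of these 2 therefore fell below the minimum mean of 1 FPKM that genes needed to enter the tests, so 7 of the 9 genes were tested. The levels of all 9 genes in each library are plotted by group.

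**Figure D1:**
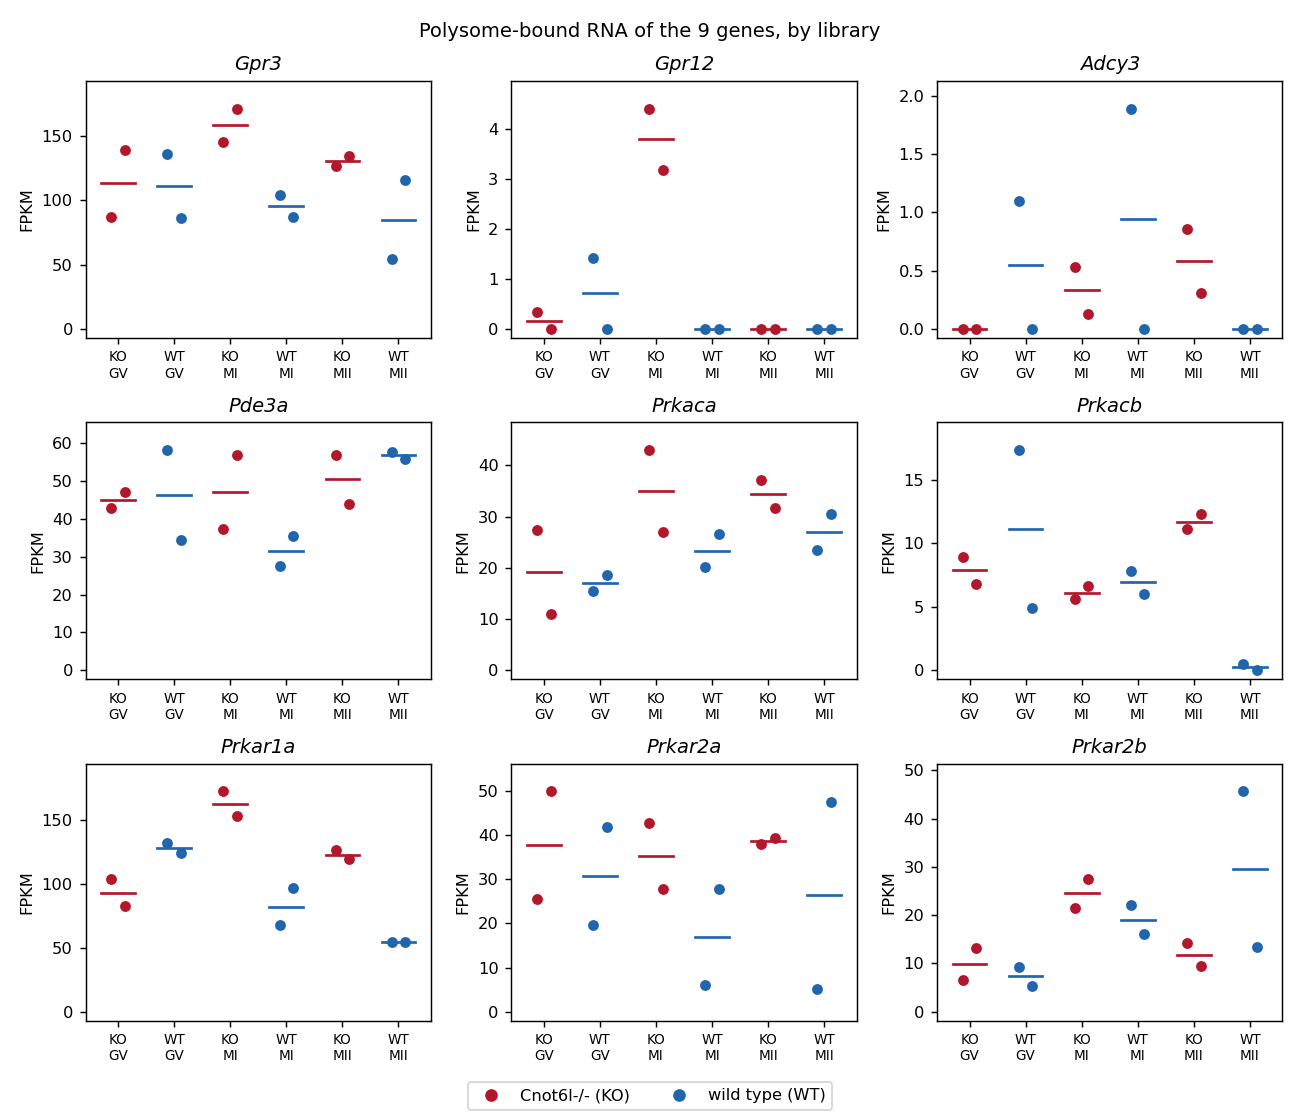
FPKM of the 9 genes in each of the 12 libraries, with KO left of WT at each stage (GV, MI, MII); points are libraries and bars are group means. Prkacb was at 0.50 and 0 FPKM in the WT MII libraries and Prkar1a at 54.4 and 54.5, both below the KO MII libraries.

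Gpr3, the receptor that keeps cyclic AMP high in the arrested oocyte, was abundant on polysomes at every stage. In KO libraries it had 86.9 and 139.6 FPKM at GV, 145.2 and 171.5 at MI, and then 126.5 and 134.6 at MII. In WT libraries it had 136.1 and 86.6 FPKM at GV, 104.1 and 86.7 at MI, and then 54.4 and 115.8 at MII. KO and WT overlapped at GV and were apart, with KO higher, at MI and MII. The stages overlapped in WT, and in KO the MI libraries were the highest. Gpr3 ranked above 89.5% to 95.1% of all genes in each library. On the log2 scale KO exceeded WT by 0.02 at GV (95% interval -0.80 to 0.84), 0.73 at MI (-0.10 to 1.55) and 0.71 at MII (-0.11 to 1.53), and it was called at none of them (limma adjusted p = 1, 0.159 and 0.185). Without WT MII replicate 2 the MII difference was 1.25 and passed the test (adjusted p = 0.0241). Between stages it was not called either, with 0.51 for KO MI minus GV and -0.19 for WT MI minus GV (limma adjusted p = 0.513 and 0.739). Gpr3 lies on chromosome 4 (132765255 to 132768451, minus strand). An alternate transcript of Cd164l2, a gene on the other strand, shares 93 exon bases with it, and the kit is not described as strand-specific. Cd164l2 was at 951.5 to 2396 FPKM, but its deposited position (132776724 to 132780469) lies outside Gpr3. No level is given for the alternate transcript alone. The part of this overlap in the Gpr3 values was not tested.

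Gpr12, the second receptor (chromosome 5, 147393726 to 147395980, minus strand), was close to 0 except in 1 group. In KO it was listed at 0.33 and 0 FPKM at GV, 4.41 and 3.18 at MI, and then 0 and 0 at MII. In WT it was listed at 1.42 and 0 FPKM at GV and at 0 in all MI and MII libraries. Only the KO MI libraries had the transcript above 0 in both replicates. A fit without the minimum level, which tested 16170 genes and called 18.2% of them for KO minus WT at MI, called Gpr12 higher in KO there (limma adjusted p = 0.00663). It also called Gpr12 higher in KO MI than in KO GV (2.04 on the log2(FPKM + 1) scale, adjusted p = 0.0144; 7.62% of genes called) and lower in KO MII than in KO MI (adjusted p = 0.0151; 5.18%). The change from GV to MI differed between the genotypes (limma adjusted p = 0.0207, 9.68% of genes called). For the change from MI to MII no difference was called (limma adjusted p = 0.0664). Both libraries were at 0 in WT MI, KO MII and WT MII. These groups added no spread to the error of Gpr12, so its p-values may be too small. No fold is given against groups listed at 0. KO MI libraries also had the most genes above 0 (13277 and 13319) and the highest totals, and the part of this in the Gpr12 values was not tested.

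Adcy3, the cyclase credited with making cyclic AMP in rodent oocytes (chromosome 12, 4134153 to 4213524, plus strand), was scarcely seen on polysomes. The KO libraries had 0 and 0 FPKM at GV, 0.53 and 0.13 at MI, and then 0.86 and 0.31 at MII. The WT libraries had 1.10 and 0 at GV, 1.89 and 0 at MI, and then 0 and 0 at MII. KO and WT overlapped at GV and MI, at MII the transcript was above 0 only in KO, and no comparison of Adcy3 was called in the fit without the minimum level (lowest limma adjusted p = 0.439). Depth in reads is unknown here, and a gene listed at 0 may still be present. Its exons share 1380 bases with those of Cenpo on the other strand, which was at 18.3 to 92.2 FPKM.

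Among the 10 adenylyl cyclase genes, Adcy5 and not Adcy3 had the highest mean level, 13.9 FPKM (genes other than Adcy3 and Pde3a in this and the next paragraph were singled out after their values were seen). Adcy5 made up 54.6% to 74.3% of the summed cyclase FPKM in the KO libraries, 63.0% and 63.3% of it in WT GV, 53.3% and 0% in the WT MI libraries, and 5.38% in WT MII replicate 1. All 10 cyclases were listed at 0 in WT MII replicate 2. Adcy3 made up at most 4.1% of the sum except in WT MI replicate 1, where it made up 14.6% of 13.0 FPKM.

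**Figure D2:**
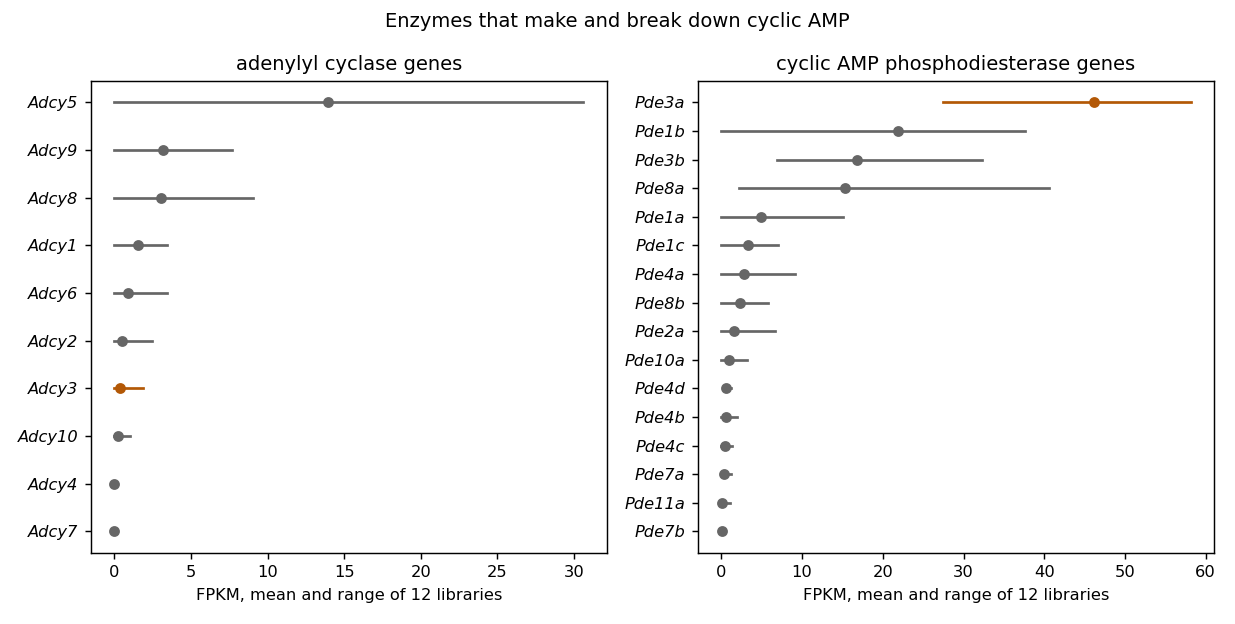
Mean FPKM (points) and range (lines) over all 12 libraries for 10 adenylyl cyclase genes and 16 cyclic AMP phosphodiesterase genes, with Adcy3 and Pde3a coloured. Adcy3 lies near 0 below Adcy5 (13.9 FPKM), while Pde3a has the highest mean of its family (46.1 FPKM).

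Pde3a, the cyclic GMP-inhibited phosphodiesterase whose activity releases the arrest (chromosome 6, 141197790 to 141447872, plus strand), was the steadiest of the 9 genes, with its highest library 2.12 times its lowest. KO libraries held 42.9 and 47.1 FPKM at GV, 37.3 and 56.8 at MI, and then 56.8 and 43.9 at MII. WT libraries held 58.1 and 34.4 FPKM at GV, 27.4 and 35.3 at MI, and then 57.7 and 55.8 at MII. The KO and WT libraries overlapped at GV and MII and did not at MI, where the KO libraries were higher. It made up 26.3% to 47.1% of the summed FPKM of 16 cyclic AMP phosphodiesterases in KO and 31.4% to 74.0% in WT, and it was the most abundant of them in every library but WT GV replicate 2, where Pde1b was at 35.1 FPKM. Pde1b, Pde3b and Pde8a came next on average (21.9, 16.8 and 15.3 FPKM). KO minus WT for Pde3a was 0.01 at GV (95% interval -0.76 to 0.77), 0.55 at MI (-0.22 to 1.32) and -0.18 at MII (-0.95 to 0.59; limma adjusted p = 1, 0.244 and 0.743). In WT it was 0.84 higher at MII than at MI as deposited (limma adjusted p = 0.113). That difference passed the test with each library rescaled to the same total (1.09, adjusted p = 0.0451), with median scaling (1.07, 0.0467) and with quantile normalization (1.12, 0.0429), so the call depended on the scaling.

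Over all genes, KO minus WT differences shifted at once, with a median of -0.06 at GV, 1.03 at MI and 0.81 at MII on the log2 scale. The medians of the 7 tested genes were 0.02, 0.55 and 0.71. Of these 7, none was called at GV (limma, 1.56% of 11667 genes called, 1222 at an unadjusted p under 0.05), 1 at MI (28.4%, of which 27.9% of genes higher) and 2 at MII (28.6%, 25.4% higher), all higher in KO. The called genes, Prkar1a at MI and Prkar1a and Prkacb at MII, were PKA subunits, as were 5 of the 7 tested genes. Median scaling sets a common level for each library from 5734 genes, which averaged at least 10 FPKM and were above 0 in every library. Over all tested genes the median difference was then still 0.21 at MI and 0.41 at MII. With this scaling the MI differences of Gpr3 (-0.23), Pde3a (-0.39), Prkaca (-0.39), Prkacb (-0.98) and Prkar2b (-0.57) lay below 0. Those of Prkar1a (0.04) and Prkar2a (0.40) lay above it, and none of the 7 was called. At MII only Prkacb was then called (3.22, limma adjusted p = 0.00485). With the same scaling, 252 of all 11667 genes were called higher and 287 lower at MI, and 1877 and 970 at MII. In bulk RNA, fewer cells with a transcript and less RNA per cell cannot be told apart.

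**Figure D3:**
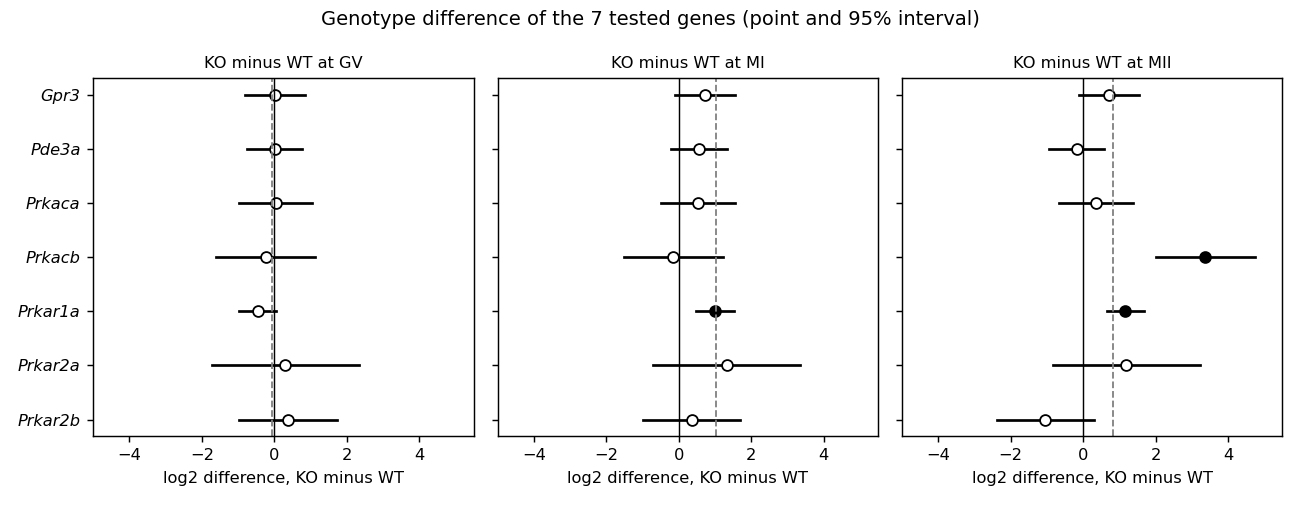
Log2 difference KO minus WT of the 7 tested genes at GV, MI and MII, with points for the estimate and lines for the 95% interval; filled points passed the limma test and the dashed line is the median of all 11667 genes. Prkacb at MII (3.38) lies far to the right of the median of 0.81, while Prkar1a at MI (0.995) lies on it.

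Prkacb, the beta catalytic subunit (chromosome 3, 146392543 to 146433202, minus strand), was at or near 0 in the WT MII libraries and not in the KO MII libraries. At MII it was at 11.2 and 12.3 FPKM in KO, against 0.50 and 0 in WT. The GV values were 8.96 and 6.78 in KO, against 17.4 and 4.90 in WT. MI oocytes had 5.59 and 6.63 in KO, against 7.85 and 6.05 in WT. The genotypes overlapped at GV and MI and lay apart at MII only. The WT MII libraries also had the fewest genes above 0 (9116 and 9064, against 12112 and 11936 in KO MII) and the lowest totals, and the part of this in the Prkacb values was not tested. The MII log2 difference on the log2(FPKM + 1) scale was 3.38 (SE 0.62, limma adjusted p = 0.00241), 2.56 above the median of all genes. It was 5.59 with a pseudocount of 0.1 in place of 1, and it was not called with quantile normalization (2.04, adjusted p = 0.0676). Leaving out any 1 library kept the call.

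Along the stages, Prkacb in WT fell by 2.69 on the log2 scale at MII relative to MI (SE 0.62, limma adjusted p = 0.0105), the only called stage difference of the 7 genes. In KO it was 0.84 higher at MII than at MI (limma adjusted p = 0.489). These 2 changes differed by 3.53 between the genotypes (SE 0.87, limma adjusted p = 0.0391; 6.52% of genes called, 2.81% higher). The WT decrease was 4.84 with a pseudocount of 0.1, and it did not pass with quantile normalization (adjusted p = 0.0982) or in a fit of the WT MI and WT MII libraries alone (0.1004). The interaction lost its call with no filter (adjusted p = 0.0669), quantile normalization (0.0880) or no abundance trend (0.0583), and without WT MI replicate 1 (adjusted p = 0.0862) or 2 (0.0631), WT MII replicate 2 (0.0618), KO GV replicate 1 (0.0574) or 2 (0.0563), either KO MI library (0.145 and 0.120) or either KO MII library (0.103 and 0.117).

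Prkaca, the alpha catalytic subunit and the main one in most tissues (chromosome 8, 86496877 to 86520344, plus strand), stayed on polysomes throughout. KO libraries had 27.3 and 11 FPKM at GV, 43.0 and 27.0 at MI, and then 37.1 and 31.7 at MII. WT libraries had 15.5 and 18.7 at GV, 20.1 and 26.7 at MI, and then 23.6 and 30.5 at MII. The genotypes overlapped at GV, and the lower KO library stood just above the higher WT library at MI and MII. Prkaca was called in no comparison. KO minus WT at MII was 0.34 (95% interval -0.67 to 1.36, limma adjusted p = 0.622), and KO MI minus GV was 0.93 (-0.09 to 1.95, adjusted p = 0.287). Its share of the summed catalytic FPKM, which does not depend on the library total, was 76.9% and 72.1% in KO MII, against 97.9% and 100% in WT MII. At GV that share was 75.3% and 61.9% in KO and 47.2% and 79.2% in WT, and at MI 88.5% and 80.3% in KO and 71.9% and 81.5% in WT. With 2 libraries a group an exact permutation test of such a share cannot give a p below 0.333, and no other test of the shares was run.

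Prkar1a, the type I alpha regulatory subunit that keeps the catalytic subunits inactive until cyclic AMP binds (chromosome 11, 109512263 to 109530962, plus strand), had lower deposited levels at each later stage in WT, but not in KO. The KO libraries had 103.7 and 82.6 FPKM at GV, 172.4 and 153.0 at MI, and then 126.4 and 119.5 at MII. The WT libraries had 132.3 and 124.3 at GV, 67.6 and 97.0 at MI, and then 54.4 and 54.5 at MII. KO lay below WT at GV and above WT at MI and MII, with no overlap at any stage. KO minus WT was -0.47 at GV (95% interval -0.98 to 0.05, limma adjusted p = 0.549). At MI it was 0.995 (SE 0.23, limma adjusted p = 0.0119) and at MII 1.16 (SE 0.23, adjusted p = 0.00417).

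Relative to the median of all genes, the Prkar1a differences were -0.03 at MI and 0.35 at MII, so at MI the gene moved with the bulk of the transcriptome. The MI call was lost with rescaling to the same total (0.35, adjusted p = 0.420), median scaling (0.04, 0.965), quantile normalization (0.06, 0.934) and a fit of the 2 groups alone (0.0502). It was also lost without WT MI replicate 1 (0.0660), KO MI replicate 1 (0.0868) or KO MI replicate 2 (0.0576). At MII the call held with rescaling to the same total (0.71, adjusted p = 0.0460) and without any 1 library, and it was lost with median scaling (0.56, 0.102) and quantile normalization (0.58, 0.102). From GV to MI the change in KO was 0.80 (limma adjusted p = 0.0549) and in WT -0.66 (0.0639), neither called, and with median scaling they were 0.42 and 0.01. The KO change passed with no filter (adjusted p = 0.0496) and without either WT MI library (0.0351 and 0.0365) or either WT MII library (0.0388 and 0.0389), the WT change without WT MI replicate 2 (0.0335) or either WT MII library (0.0453 and 0.0454). From MI to MII Prkar1a changed by -0.40 in KO and -0.56 in WT, without a call (adjusted p = 0.366 and 0.115). The changes from GV to MI differed by 1.46 between KO and WT, which was called (SE 0.33, limma adjusted p = 0.0165; 14.7% of genes called, 14.4% higher), while the median of all genes was 1.13. That call was lost under all 3 rescalings (0.41 to 0.58, adjusted p = 0.511 to 0.701), without the abundance trend (0.0561), without WT GV replicate 1 (0.0590) or 2 (0.0518), and without KO MI replicate 1 (0.0729) or 2 (0.0543).

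Prkar2a, the type II alpha regulatory subunit (chromosome 9, 108594474 to 108651842, plus strand), differed widely between replicates. KO libraries had 25.5 and 49.9 FPKM at GV, 42.8 and 27.8 at MI, and then 38.1 and 39.3 at MII. WT libraries had 19.7 and 41.8 at GV, 6.07 and 27.7 at MI, and then 5.21 and 47.5 at MII. The WT MII replicates differed 9.12-fold and the WT MI replicates 4.57-fold, and the lower library of each WT stage was replicate 1. At GV and MII the genotypes overlapped, and at MI the lower KO library (27.81) and the higher WT library (27.73) were almost level. The genotype difference was 0.30 at GV, while it was 1.32 at MI and 1.19 at MII with 95% intervals reaching from -0.71 to 3.35 at MI and from -0.84 to 3.22 at MII (limma adjusted p = 0.971, 0.286 and 0.371). Without WT MII replicate 2 the MII difference was 2.68 and was called (adjusted p = 0.0339).

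Prkar2b, the type II beta regulatory subunit, which in rat granulosa cells is induced by follicle-stimulating hormone (chromosome 12, 32643344 to 32746144, minus strand), had its highest level in a WT MII library. KO libraries had 6.62 and 13.3 FPKM at GV, 21.6 and 27.5 at MI, and then 14.2 and 9.44 at MII. WT libraries had 9.31 and 5.32 at GV, 22.2 and 16.0 at MI, and then 45.6 and 13.5 at MII. KO and WT overlapped at every stage, and both MI libraries of each genotype exceeded both of its GV libraries. MI minus GV was 1.28 in KO (95% interval -0.06 to 2.63, limma adjusted p = 0.260) and 1.30 in WT (-0.05 to 2.65, adjusted p = 0.146), and the interaction was -0.02 (-1.92 to 1.89, adjusted p = 0.992). The WT value, 2.16 above the median of all genes, was called with quantile normalization (2.34, adjusted p = 0.0306) and was 1.91 with median scaling (0.0679). KO minus WT at MII was -1.04 (limma adjusted p = 0.234), and -1.89 and called without WT MII replicate 2 (adjusted p = 0.0373). Summed FPKM of 20 cumulus and granulosa markers was 173.5 and 153.5 in KO MI, against 161.2 and 243.4 in KO GV, which overlapped. It was 123.1 and 143.2 in WT MI, against 293.5 and 313.1 in WT GV. Of the 12 of these markers that were tested, 2 rose and 1 fell in KO MI relative to KO GV (limma, 10.2% of all genes called). In WT MI relative to WT GV, 2 rose and 3 fell (24.8%). With median scaling the WT falls of Amh and Amhr2 were not called (limma adjusted p = 0.0827 and 0.0756), and the other calls held. The inhibin gene Inha had 23.4 and 25.0 FPKM in KO MI, against 112.6 and 152.4 in KO GV, and 22.7 and 37.6 in WT MI, against 200.9 and 238.8 in WT GV. The aromatase gene Cyp19a1 was also higher at MI than at GV in KO, at 100.8 and 92.0 FPKM against 8.87 and 17.0 (limma adjusted p = 8.5e-04). In WT its MI minus GV difference was 0.24 and not called (limma adjusted p = 0.696). The 2 changes of Cyp19a1 differed by 2.63 between the genotypes (limma adjusted p = 0.0131). With median scaling this was 1.58 and not called (0.257). In KO MII Cyp19a1 was at 63.85 and 98.35 FPKM, and Prkar2b at 14.2 and 9.44. Ptx3, a gene of the expanding cumulus, was at 11.2 and 3.71 FPKM in KO MI and 32.1 and 40.2 in WT MI, and listed at 0 in all GV libraries, and both calls were upward. Tnfaip6 was not called in KO MI and was called higher in WT MI, each relative to its GV libraries, and the difference between the genotypes is not given here. These markers were singled out after their values were seen, and their part in the Prkar2b values was not tested.

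**Figure D4:**
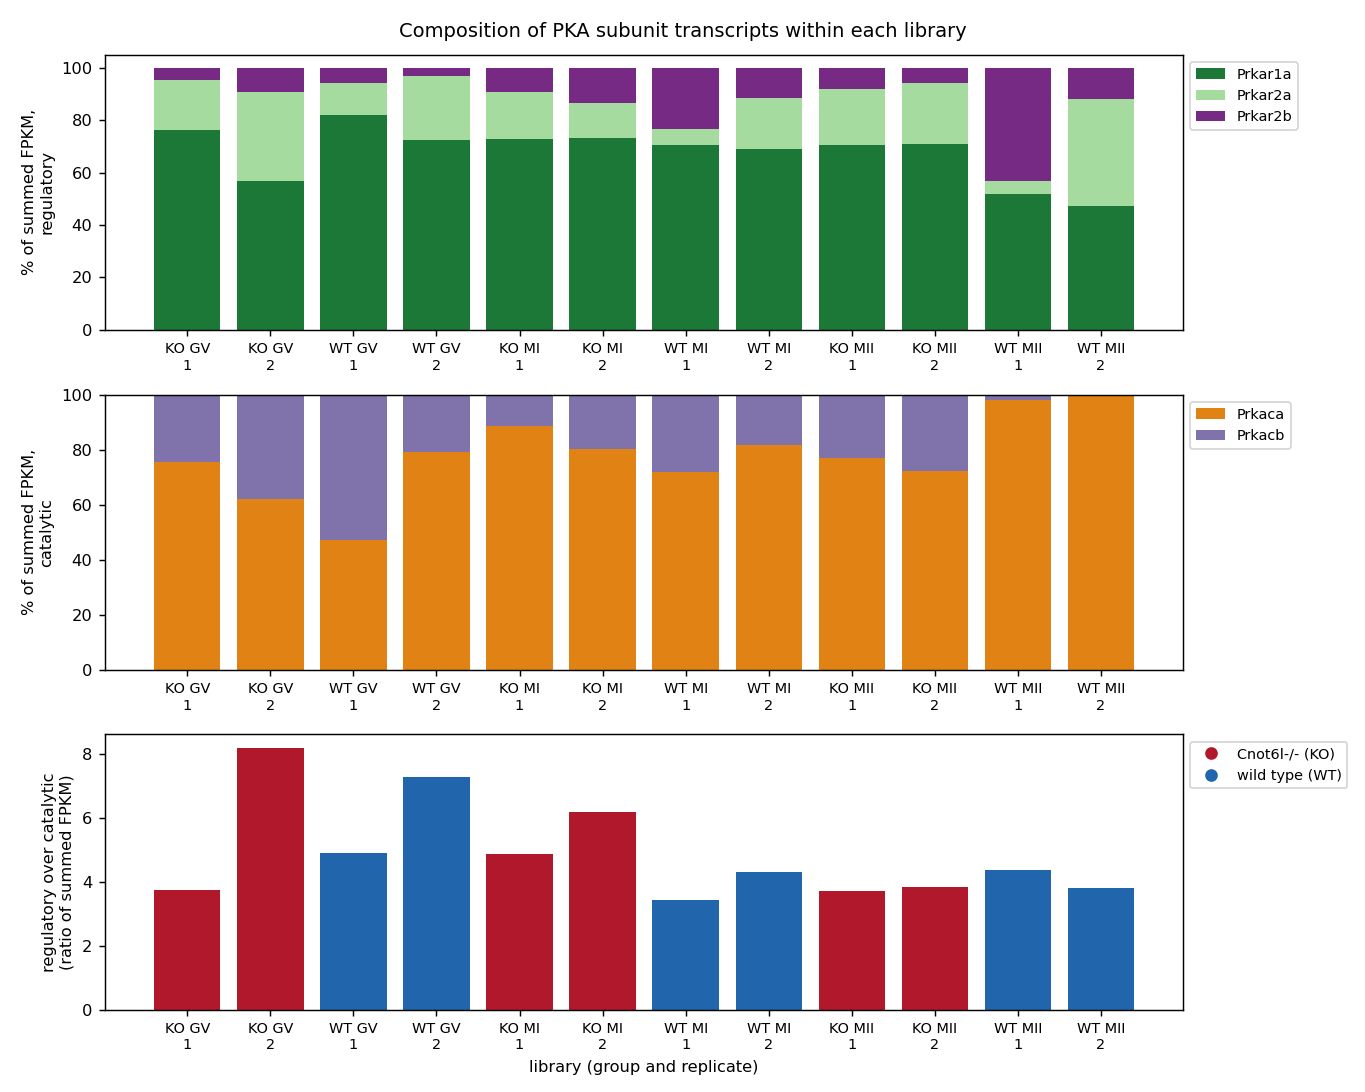
Within each library, the percentage of summed regulatory-subunit FPKM from Prkar1a, Prkar2a and Prkar2b (top), the percentage of summed catalytic-subunit FPKM from Prkaca and Prkacb (middle), and the ratio of the 2 sums (bottom), with KO left of WT at each stage. Prkar1a makes up 51.7% and 47.2% of the regulatory sum in WT MII, and Prkaca makes up 97.9% and 100% of the catalytic sum there.

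Among the PKA subunits, regulatory transcripts exceeded catalytic ones in every library. The ratio of summed regulatory to summed catalytic FPKM was 3.74 and 8.20 in KO GV, against 4.90 and 7.27 in WT GV. MI oocytes had a ratio of 4.87 and 6.19 in KO, against 3.43 and 4.30 in WT, and MII oocytes one of 3.70 and 3.83 in KO, against 4.37 and 3.79 in WT. At MI the KO libraries were above the WT libraries, and at GV and MII they overlapped. Prkar1a made up 70.7% and 71.0% of regulatory FPKM in KO MII, against 51.7% and 47.2% in WT MII. The WT MII replicates differed in the rest, which was mostly Prkar2b in replicate 1 (43.3%) and mostly Prkar2a in replicate 2 (41.1%). At MI its share was 72.8% and 73.4% in KO, against 70.5% and 68.9% in WT, and at GV 76.4% and 56.7% in KO, against 82.0% and 72.5% in WT. The ratio of Prkar1a to Prkaca was likewise lower in WT MII, with 3.41 and 3.77 in KO MII and 2.31 and 1.79 in WT MII. It was also lower in WT at MI, with 4.01 and 5.66 in KO and 3.37 and 3.64 in WT, and overlapped at GV. The ratio of Prkar1a to Gpr3 overlapped between the genotypes at every stage. At MII it was 0.999 and 0.888 in KO, against 0.999 and 0.471 in WT. These ratios do not depend on the library total, and they were not tested.

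From GV to MI, the step at which arrest ends, none of the 7 genes was called in KO (limma, 10.2% of genes called, 2497 at an unadjusted p under 0.05) or in WT (24.8%, 4412). The median change of the 7 genes was 0.51 in KO and -0.40 in WT, where the medians of all genes were 0.26 and -0.87. From MI to MII none was called in KO (7.35%, 2496 at an unadjusted p under 0.05) and 1, Prkacb, in WT (22.1%, of which 16.4% lower). The median changes of the 7 genes were then 0.01 in KO and 0.20 in WT, and those of all genes -0.59 and -0.27. A median of 7 genes says nothing particular about them.

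**Figure D5:**
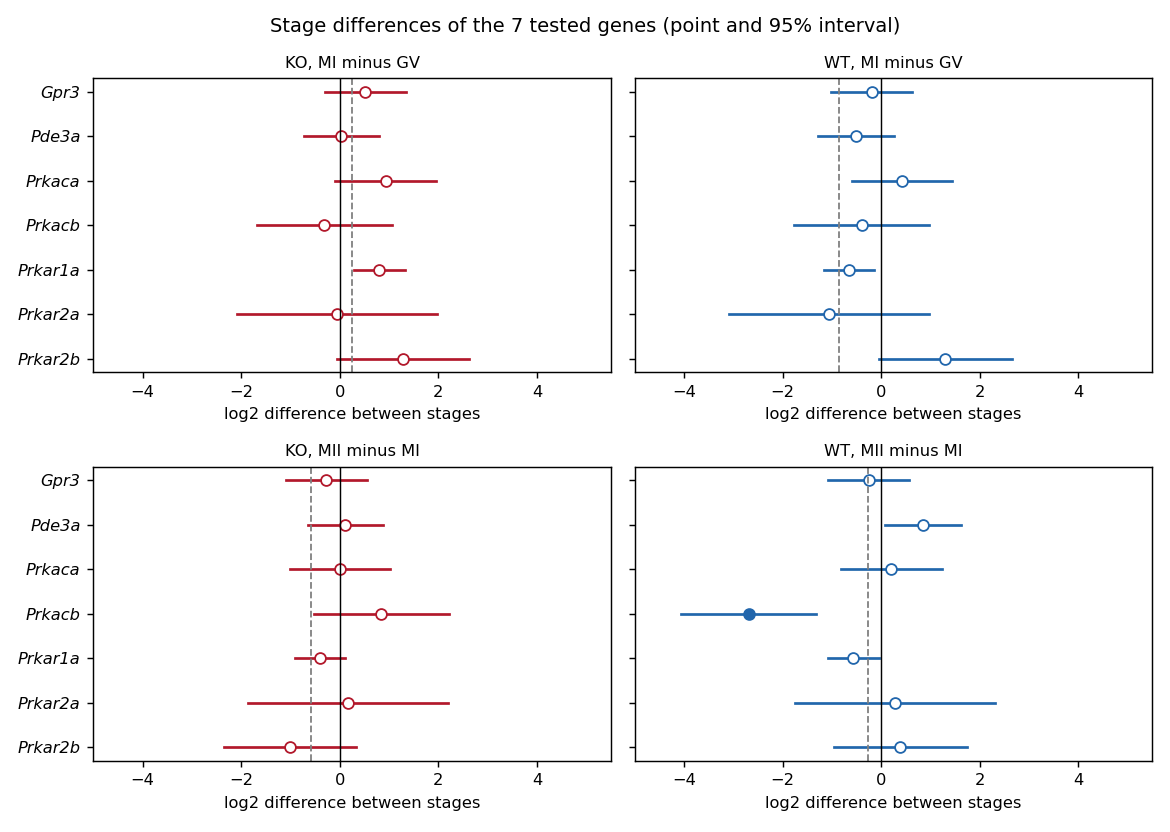
Log2 differences between stages for the 7 tested genes in KO (left) and WT (right), MI minus GV above and MII minus MI below; points are estimates, lines 95% intervals, and the dashed line is the median of all genes. Prkacb in WT, MII minus MI (-2.69), is the 1 filled point, which passed the limma test.

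Of 92 other genes of the pathway, 62 were tested. KO minus WT at GV was called for 1 of them, the 14-3-3 gene Ywhae (-0.72, limma adjusted p = 0.00989). At MI 17 were higher in KO and 0 lower (0 and 1 with median scaling), or 27.4% of 62 beside 28.4% of all genes. At MII 16 were higher and 3 lower (7 and 10 with median scaling), or 30.6% beside 28.6%. With median scaling, 252 of all 11667 genes were higher and 287 lower at MI, and 1877 and 970 at MII. The largest MII differences were in Adcy5 (3.84, limma adjusted p = 0.00662), Cdc25b (3.51, 0.0130) and the calcium-dependent phosphodiesterase Pde1b (3.38, 0.0438). Adcy5 was at 18.4 and 19.6 FPKM in KO MII, against 0.95 and 0 in WT MII. Cdc25b, the phosphatase that PKA holds back, was at 53.0 and 47.4 FPKM in KO MII, against 0.33 and 14.1 in WT MII. Both kept their call with median scaling (3.64, adjusted p = 0.0179, and 3.13, 0.0384), while Pde1b did not (0.1001).

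Between stages, 0 of the 62 rose and 13 fell in WT MI relative to GV, or 21% beside 24.8% of all genes. With median scaling these counts were 1 and 4, beside 815 and 889 of all 11667 genes. The largest decreases were Adcy5 (-2.81, limma adjusted p = 0.0342), the PKA inhibitor gene Pkig (-2.69, 6.8e-04) and Rapgef3 (-2.44, 0.0466), which encodes the cyclic AMP-responsive exchange factor Epac. Adcy5 and Rapgef3 lost the call with median scaling (adjusted p = 0.128 and 0.154). Pkig had 36.5 and 15.4 FPKM in WT MI, against 150.5 and 168.9 in WT GV, and it passed with median scaling too (adjusted p = 0.00506). In KO MI relative to GV, 5 rose and 0 fell, or 8.06% beside 10.2% of all genes. With median scaling 2 rose and 2 fell, beside 489 and 271 of all genes. Among the 5 was the stimulatory G protein gene Gnas (1.17, limma adjusted p = 0.0292, and 0.190 with median scaling). Gnas was at 759.5 and 517.2 FPKM in KO MI against 364.3 and 210.8 in KO GV. From MI to MII, 5 rose and 9 fell in WT, or 22.6% beside 22.1% of all genes. With median scaling 8 rose and 5 fell, beside 1047 and 1739 of all genes. The WT changes were led by the AMP-activated kinase gene Prkaa1 (-3.23, limma adjusted p = 8.3e-04). In KO 0 rose and 7 fell, or 11.3% beside 7.35% (0 and 1 with median scaling, beside 98 and 79 of all genes). Among the 7 was the gap junction gene Gja1 (limma adjusted p = 0.00336), listed at 0 in both KO MII libraries against 17.5 and 15.3 FPKM in KO MI. The change from GV to MI differed between the genotypes for 8 of the 62, or 12.9% beside 14.7% of all genes. All 8 had a positive difference (0 called with median scaling, beside 75 positive and 108 negative of all genes). From MI to MII it differed for 3, all negative, or 4.84% beside 6.52%. With median scaling 1 was positive and 2 negative, beside 526 and 202 of all genes. Npr2, the cyclic GMP-making receptor of follicle cells, was at 0 in 11 of 12 libraries.

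Over the 12 libraries the genes with the pattern most like Gpr3 among 7693 genes with a mean of at least 5 FPKM were Mob1a (Pearson's r = 0.934 of log2 values), Blmh (0.917) and Huwe1 (0.914). Trim36 (0.862), Atg2b (0.860) and Arid1a (0.848) were most like Pde3a. All of these points share the library totals, and replicates of a group are among them.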

How the data were processed

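The submitters' processing notes list CASAVA 1.8, Bowtie2 2.1.0, TopHat2 2.0.11, Cufflinks 2.2.1 and the build mm9, without roles. The deposited values are FPKM of 23235 genes, given by the authors both together and library by library, with no difference between the copies. No source used here gives the annotation, the read filters or the depth in reads. Libraries were made from pre-amplified cDNA with Tn5 transposase, per the labels' protocols, so genes in few molecules can drop to 0.

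Tests used log2(FPKM + 1), which understates folds of low genes, and 11667 genes whose mean reached 1 FPKM. In R 4.3.3, limma 3.58.1 was fitted with a mean for each of 6 groups (residual df 6, prior df 4.27, abundance trend); genes with a 2-sided Benjamini-Hochberg adjusted p below 0.05 count as called. Comparisons share libraries, so their values are not independent of each other. The code was tested on simulated data. The 9 genes, the pathway and marker lists and the tests were chosen with earlier results of these data known. The text names all 9 genes, Cnot6l, and 3 genes of like pattern each for Gpr3 and Pde3a. For each comparison, at most 3 other pathway genes with the largest called differences are named. Markers, some cyclase and phosphodiesterase genes, Npr2 and the neighbours Cd164l2 and Cenpo were named outside this rule. Median scaling divided each library by its median ratio to the geometric mean of 5734 genes. Positions are those of the deposited table and 3′ ends those of GENCODE mouse release 1, both on mm9.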

Additional observations from a re-analysis of the deposited data

Results flagged for a closer look

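The change of Prkar1a from GV to MI differed between KO and WT, with an interaction of 1.46 on the log2 scale (KO change 0.80, WT change -0.66; limma adjusted p = 0.0165, and 0.00971 to 0.701 over its alternatives). The change of Prkacb from MI to MII differed as well, with an interaction of 3.53 (KO change 0.84, WT change -2.69; limma adjusted p = 0.0391, and 0.0211 to 0.145 over its alternatives). What lies behind either difference was not tested.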

How the results depend on the processing

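Of 1260 values of the 7 tested genes under the alternatives, 1213 kept their side of the threshold, 32 lost a call, 15 gained one, and 0 called values changed sign. Counts of called genes moved as follows. For KO minus WT at MI (1 called) the count was 2 with no filter and 0 with rescaling to the same total (TPM), median scaling, quantile normalization or a fit of only the groups compared, and 0 to 1 leaving out 1 library. At MII (2 called) it was 1 with median scaling, 0 with quantile normalization and 2 to 5 leaving out 1 library, with 5 (4 higher, 1 lower) without WT MII replicate 2. For WT MI minus GV (0 called) it was 1 with quantile normalization and 0 to 1 leaving out 1 library, and for WT MII minus MI (1 called) 2 with TPM or median scaling and 0 in a fit of only the groups compared. For KO MI minus GV (0 called) it was 2 with no filter and 0 to 1 leaving out 1 library, and for KO MII minus MI (0 called) 1 with no filter. The interaction from GV to MI (1 called) gave 2 with no filter, 0 with TPM, median scaling, quantile normalization or no abundance trend, and 0 to 1 leaving out 1 library. The interaction from MI to MII (1 called) gave 0 with no filter, quantile normalization or no abundance trend, and 0 to 1 leaving out 1 library. With no filter Gpr12 enters the test and adds 1 to each of the higher counts; the cause of the other moves was not tested. Without a library, its lone partner was assumed to vary like the other groups. The same replicate numbers did not pair the libraries (r of replicate deviations between groups -0.029 to 0.055 over 15 pairs of groups); with the replicate block the counts were 0, 1 and 2 for KO minus WT at GV, MI and MII, 0 and 1 for WT MI minus GV and MII minus MI, 0 and 0 for KO, and 1 and 1 for the interactions, equal to those without it. Depth in reads is unknown, and replicates, 2 a group, limit the precision: the 95% intervals of Prkar2a reach past 2 on the log2 scale in each comparison.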
